A study of Homo sapiens with 6 samples.

Results

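The kinases, subunits and regulators of the PI3K, Akt, mTOR and AMPK pathways were followed in 22Rv1-ABHD5 cells without and with Dox. The members were the 58 genes of a fixed list of symbols, all of them found among the 27470 genes of the table of raw counts. The rule uses symbols and no measured values, but the list was chosen with earlier results of these data known. The members fall into 10 groups by role, from the catalytic subunits of PI3K to AMPK and LKB1. 22Rv1 is a human castration-resistant prostate cancer line, and in 22Rv1-ABHD5 cells a lentiviral vector (pInducer20) carries ABHD5, an activator of triglyceride hydrolysis, behind a promoter that Dox (doxycycline) switches on. The labels call the 3 libraries without Dox Control and the 3 libraries with Dox OE, and give 48 h for both. All 6 libraries came from cells that carry the transgene and had been selected with G418, whether as a pool or as 1 clone is not stated. Libraries of parent cells given Dox were not used here, so effects of Dox itself and of ABHD5 cannot be told apart, and the Dox dose of these libraries is not given in the sources used here. Whether the 3 libraries of a condition came from separate cultures is not stated either, so the p-values measure the spread between these libraries, which may be technical.

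PI3K makes the lipid signal that brings PDPK1 and Akt to the membrane, where PDPK1 phosphorylates Akt. Akt in turn holds back the TSC complex, the brake on the small GTPase Rheb, so that Rheb can activate mTOR complex 1, which drives protein and lipid synthesis through the S6 kinases and the 4E-BP proteins. Amino acids bring the same complex to the lysosome through the Rag GTPases, whereas AMPK, a sensor of low energy that LKB1 activates, counters it. Most of this control works by phosphorylation and binding of the proteins, whereas the values below are mRNA levels.

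The libraries were made from poly(A) RNA primed at its 3' end, and 3394672 to 7271771 reads were counted on genes per library. The share of reads that matched no gene was 32.5% to 34.6% in the libraries without Dox and 35.6% to 39.5% in those with Dox. ABHD5, the induced gene, averaged 61.4 ± 3.0 CPM without Dox and 116.1 ± 21.3 CPM with Dox (mean ± SD, n = 3 each), and the groups did not overlap. CPM are a gene's counts over the library's total, in parts per 1e6, after TMM adjustment of that total. Its log2 fold change of Dox over no Dox was 0.91 (SE 0.15, adjusted p = 1.978e-04 by the quasi-likelihood test of edgeR, adjusted by Benjamini and Hochberg's method over all 12233 genes tested). Whether the vector's ABHD5 transcript keeps the native 3' end, where these libraries place their reads, is not stated. The change in ABHD5 may therefore not measure all of the transgene's mRNA. PNPLA2, which encodes ATGL, the triglyceride lipase that ABHD5 activates, averaged 35.3 ± 6.13 CPM without Dox and 57.9 ± 15.4 with Dox (SD, n = 3 each), and its log2 fold change was 0.74 (SE 0.19, edgeR adjusted p = 0.00752). All 10 prostate markers exceeded 3 counts in every library, with a summed level of 1570 to 1670 CPM without Dox and 991 to 1110 CPM with Dox. Of the markers of other cells, the 3 endothelial genes had no counts, the 4 fibroblast genes summed to 4.96 to 9.43 CPM without Dox and 6.12 to 9.98 with Dox, and the 4 leukocyte genes to 2.09 to 3.41 and 3.81 to 5.01 CPM. The part of these shifts in the results below was not tested.

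Few mRNAs of the 58 listed components differed with Dox. Of the 58 members, 55 passed the filter on low counts, and 4 of these 55 (7.27%) differed at an adjusted p under 0.05 in edgeR's test. Over all genes tested, 3125 of 12233 (25.5%) differed, 1451 of them higher (11.9%) and 1674 lower (13.7%) with Dox. Of 53 further pathway genes tested, described below, 10 (18.9%) differed, and both lists were chosen with earlier results of these data known. Among the members, PDPK1, the kinase that activates Akt, and SESN3, a sestrin that restrains mTOR complex 1 in response to stress, were higher. FNIP2, a partner of the Rag regulator folliculin, and DDIT4, a stress-induced inhibitor of mTOR complex 1 also known as REDD1, were lower. The CPM values of the conditions did not overlap for 11 of the 55 members (20%), 6 of them higher and 5 lower with Dox, against 4834 of all genes tested (39.5%). At an unadjusted p under 0.05 in the same test, 12 of the 55 members and 4507 of the 12233 genes tested differed.

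The spread of the members' changes was also narrow. Their log2 fold changes ran from -0.80 to 0.72, with 28 above and 27 below 0, and the median was 0.0016, beside 0.016 over all genes tested. The median size of the change, without regard to sign, was 0.17 log2 units for the members and 0.30 for all genes. None of the 55 members tested changed by 2-fold, beside 986 of the 12233 genes tested. For the 53 further pathway genes the median size was 0.32, so the narrow spread was seen in the listed members and not in those genes. The further genes also had a lower level (median log2 CPM 4.559) and a larger median standard error (0.19) than the members. The part of this in the wider spread was not tested. For 50 members (90.9%) the 95% interval of the fold change lay wholly within a 2-fold change in either direction, as it did for 72.1% of all genes, and for 29 members (52.7%) it lay within 1.5-fold, beside 34.8%. Of the 51 members that were not called, 48 had an interval within 2-fold. The standard error of the log2 fold change had a median of 0.16 for the members and 0.18 for all genes, and the members' mean level was somewhat higher, with a median log2 CPM of 5.71 beside 5.003. Scaling by library totals alone, without TMM, moved the median of all genes from 0.016 to 0.14 and that of the members to 0.12, and 6 members then passed, 5 higher and 1 lower. Under that scaling 2179 genes in all were higher and 1136 lower. The members took 0.347% to 0.385% of the gene counts without Dox and 0.383% to 0.406% with Dox.

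**Figure D1:**
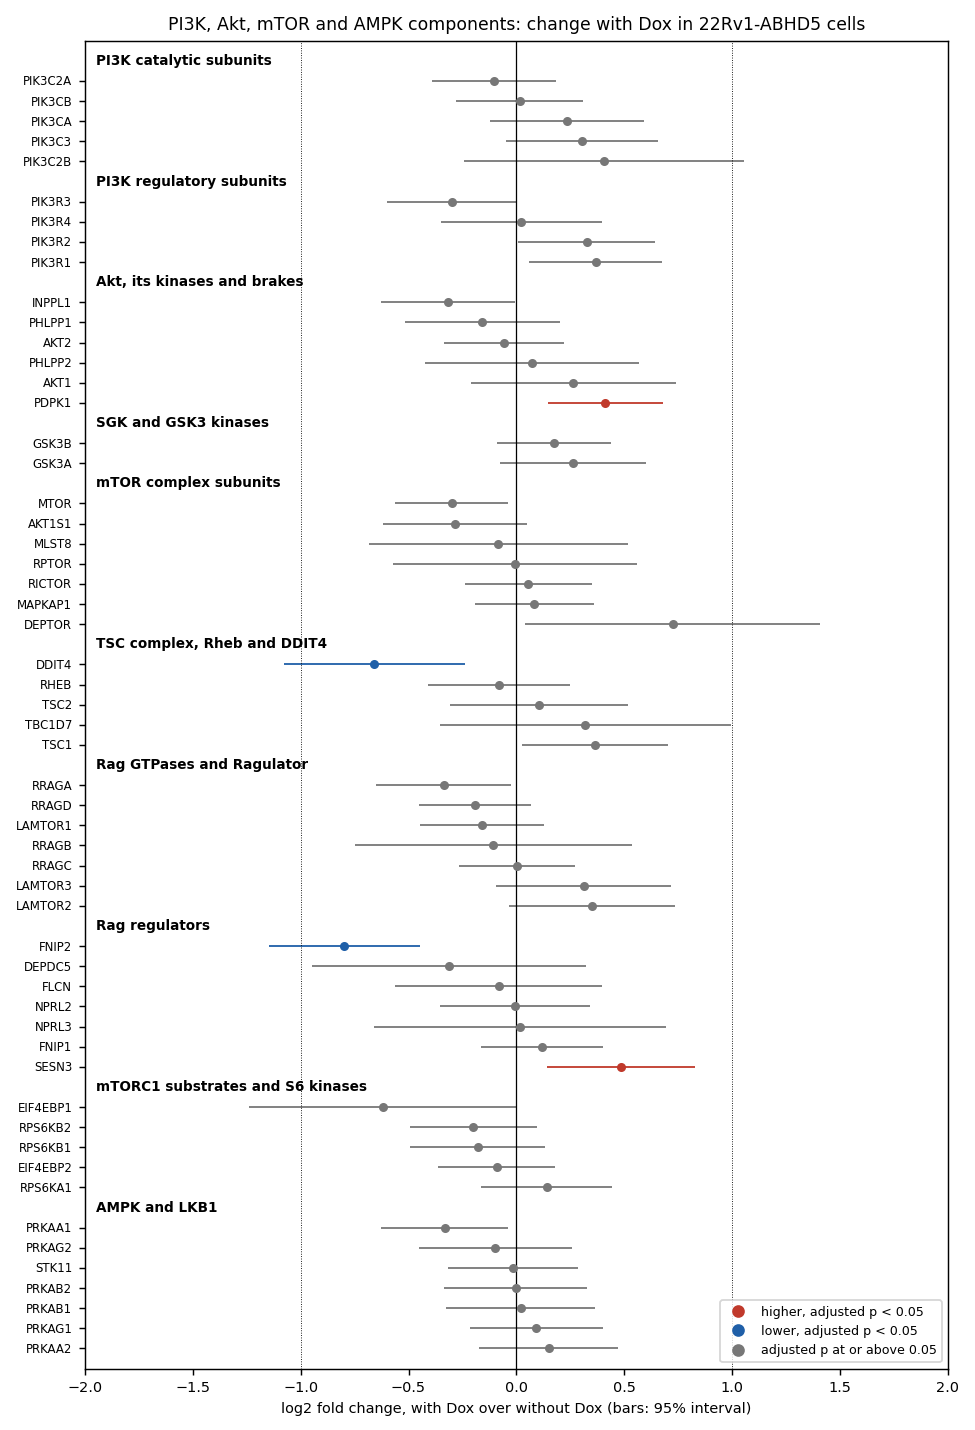
Log2 fold change in CPM (Dox over no Dox, horizontal axis) of the 55 members tested, grouped by role, with points for the estimate and bars for its 95% interval from edgeR's quasi-likelihood fit. The 4 called members, PDPK1, SESN3, FNIP2 and DDIT4, are set apart by color, and most of the other intervals cross 0.

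**Figure D2:**
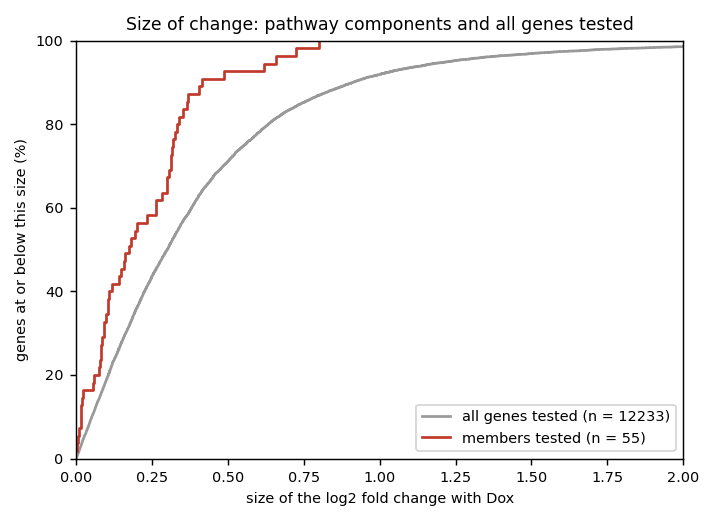
Cumulative share of genes (vertical axis, percent) against the size of their log2 fold change without regard to sign (horizontal axis), for the 55 members tested and for all 12233 genes tested, drawn up to a size of 2. The members' curve rises earlier, with a median of 0.17 against 0.30, and reaches its end below a 2-fold change.

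PDPK1 encodes the kinase that phosphorylates the activation loop of Akt, the S6 kinases and SGK. Its level without Dox was 71.3, 68.85 and 72.3 CPM in replicates 1, 2 and 3, and with Dox it was 93.7, 86.55 and 102.1 CPM. All 3 libraries with Dox thus lay above all 3 without, and the libraries without Dox lay close together. The coefficient of variation without Dox, 2.49%, was below the 5.94% that counting error alone would give. The means were 70.8 ± 1.76 and 94.1 ± 7.76 CPM (SD, n = 3 each), a 1.33-fold increase (log2 fold change 0.41, 95% interval 0.15 to 0.68, edgeR adjusted p = 0.02399). The call was lost when any 1 of 5 libraries was left out (adjusted p 0.0542 to 0.0915, log2 fold change 0.35 to 0.43), and kept without replicate 2 with Dox (0.47, adjusted p = 0.0149).

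SESN3 was the other member to rise. It stood at 25.6, 29.5 and 25.3 CPM without Dox and at 42.0, 32.3 and 37.6 CPM with Dox. The lowest library with Dox, replicate 2, exceeded the highest without Dox, also replicate 2, by a small margin. The change was 1.40-fold (26.8 ± 2.32 to 37.3 ± 4.85 CPM, SD, n = 3 each; log2 fold change 0.49, 95% interval 0.14 to 0.83, edgeR adjusted p = 0.03578). It missed the threshold in DESeq2's test (adjusted p = 0.0546) and without replicate 1 or 3 of either condition (0.0611 to 0.152). A long noncoding RNA lies on the opposite strand at the 3' end of SESN3. Since the use of strand in counting is not stated, it is not known whether reads from it affect the count of SESN3.

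FNIP2 had the largest estimate in size among the members tested, ahead of DEPTOR (0.72), though without replicate 3 of the cells without Dox DEPTOR stood at 1.20 and FNIP2 at -0.69. Without Dox its level was 38.9, 38.1 and 47.0 CPM, and with Dox it was 20.7, 23.4 and 27.1 CPM. The groups were well apart, the highest library with Dox lying below every library without. Mean levels of 41.3 ± 4.88 and 23.7 ± 3.21 CPM (SD, n = 3 each) gave a 1.74-fold decrease (log2 fold change -0.80, 95% interval -1.15 to -0.45, edgeR adjusted p = 0.001766). It was called under all 13 alternatives of normalization, filter, test and libraries (adjusted p 8.36e-05 to 0.0161, log2 fold change -0.92 to -0.68). C4orf45, on the opposite strand at its 3' end, had at most 1 count in any library. That count cannot show whether reads were shared, since reads on both genes may have been left out as ambiguous.

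DDIT4 encodes REDD1, which acts through the TSC complex when cells lack oxygen or energy. It was at 21.7, 20.2 and 28.4 CPM without Dox and at 16.1, 12.8 and 15.8 CPM with Dox. Replicate 3 without Dox stood above the other libraries of its condition, and the groups did not overlap. The decrease was 1.58-fold (23.4 ± 4.42 to 14.9 ± 1.81 CPM, SD, n = 3 each; log2 fold change -0.66, 95% interval -1.08 to -0.24, edgeR adjusted p = 0.02203). The call was lost without replicate 3 of the cells without Dox (log2 fold change -0.48, adjusted p = 0.137), without replicate 2 with Dox (-0.58, 0.0531) and on library totals alone (-0.54, 0.0551), within a range of 0.0096 to 0.137 over the 13 alternatives.

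**Figure D3:**
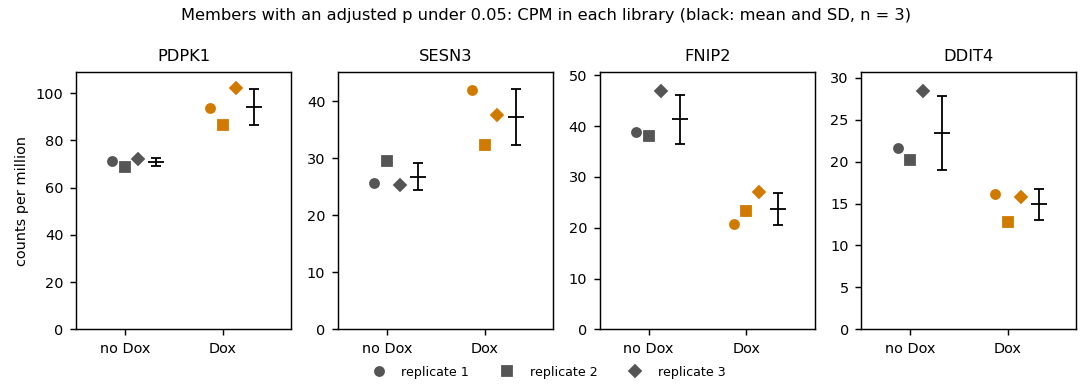
CPM after TMM normalization (vertical axes, from 0) of PDPK1, SESN3, FNIP2 and DDIT4 in the 3 libraries without and the 3 with Dox, with a symbol for each library and the mean ± SD in black. The groups do not overlap in any of the 4 panels, and SESN3 comes closest to overlap, with 29.5 CPM without and 32.3 CPM with Dox.

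The 4 genes that were called lie on 4 chromosomes of hg38, PDPK1 on chromosome 16 from 2537979 to 2603188, SESN3 on chromosome 11 from 95165513 to 95232541, FNIP2 on chromosome 4 from 158769026 to 158908050 and DDIT4 on chromosome 10 from 72273919 to 72276036, the whole gene with its exons, introns and UTRs in each case (GENCODE 44). The sequence just upstream of each start is shown because these are the members whose transcript levels moved, and because the 4 differ much in composition. The stretches are taken from RefSeq promoters of GRCh38.p14, read 5' to 3' along the gene, and end at the base before the GENCODE start. They are chr16:2537771-2537978 (+) for PDPK1, chr11:95232542-95232725 (-) for SESN3, chr4:158768776-158769025 (+) for FNIP2 and chr10:72273674-72273918 (+) for DDIT4. Capitals mark matches to the GC box letters GGGCGG and to CCAAT on either strand, and adjoining matches can overlap.
PDPK1: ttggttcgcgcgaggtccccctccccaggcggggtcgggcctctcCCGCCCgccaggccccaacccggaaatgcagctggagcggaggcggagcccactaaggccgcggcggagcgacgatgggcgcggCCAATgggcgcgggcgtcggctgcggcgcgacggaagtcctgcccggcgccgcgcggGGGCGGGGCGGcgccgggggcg
SESN3: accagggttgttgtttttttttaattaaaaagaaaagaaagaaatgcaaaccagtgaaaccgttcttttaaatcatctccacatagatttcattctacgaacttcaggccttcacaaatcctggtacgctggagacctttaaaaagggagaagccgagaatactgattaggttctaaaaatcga
FNIP2: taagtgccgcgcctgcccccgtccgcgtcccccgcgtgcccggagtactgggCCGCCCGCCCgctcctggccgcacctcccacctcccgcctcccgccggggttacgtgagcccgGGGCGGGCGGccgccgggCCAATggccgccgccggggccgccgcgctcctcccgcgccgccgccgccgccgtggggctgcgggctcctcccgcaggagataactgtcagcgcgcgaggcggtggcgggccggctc
DDIT4: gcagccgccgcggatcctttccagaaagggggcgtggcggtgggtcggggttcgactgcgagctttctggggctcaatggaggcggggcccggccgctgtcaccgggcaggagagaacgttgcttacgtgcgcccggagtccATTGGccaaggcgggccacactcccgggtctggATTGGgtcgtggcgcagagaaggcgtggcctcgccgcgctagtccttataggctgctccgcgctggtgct
FNIP2 and PDPK1 had the richest stretches, with 82.0% and 80.3% G and C, and held 4 and 3 GC boxes and 1 CCAAT each. DDIT4 had 68.6% G and C and 2 CCAAT matches, and SESN3, at 35.9%, held neither motif. The stretches differ in length, with 208 bases for PDPK1, 184 for SESN3, 250 for FNIP2 and 245 for DDIT4. SESN3 also held neither motif in the full 250 bases before its RefSeq start. A RefSeq promoter was found for 51 of the 58 members, all but AKT1S1, DEPTOR, EIF4EBP1, MLST8, RRAGA, RRAGD and SGK3. In the 250 bases before the RefSeq start, a GC box stood in 41 of these 51 (80.4%) against 42.3% of all 27305 promoters. CCAAT stood in 19 (37.3%) against 33.0%, at a median G and C content of 66.4% against 58.0%. The 27305 promoters were not limited to genes that passed the filter on low counts, whereas 55 of the 58 members passed it. The 2 sets are therefore not alike in expression. The E-box CACGTG was found in 5 member promoters (9.8% against 6.49%), those of FNIP1, LAMTOR1, RRAGB, RRAGC and TSC2. The forkhead letters GTAAACA were found in 1 (PIK3CA, 2.0% against 2.98%), TGATGNAA in 1 (TSC2, 2.0% against 3.19%) and TGACGTCA in 0 (against 1.77%), each searched on both strands. A match is a description of these letters and was not tested for use.

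The catalytic subunits of PI3K gave no call. Of the 6, PIK3CD, the isoform typical of white blood cells, had 0 to 6 counts per library and was not tested. The other 5 had log2 fold changes of -0.10 to 0.41 with a median of 0.23, 4 of them above 0. PIK3C3, the catalytic subunit of the class III enzyme VPS34 that works in autophagy, had the smallest adjusted p. It stood at 53.0, 46.8 and 44.5 CPM without Dox and 57.4, 74.9 and 47.4 CPM with Dox. Replicate 2 with Dox was the high value, and the groups overlapped (log2 fold change 0.30, 95% interval -0.05 to 0.65, edgeR adjusted p = 0.1981). PIK3C3 passed without replicate 3 with Dox (0.46, adjusted p = 0.0464), within a range of 0.0464 to 0.633 over the 13 alternatives. PIK3CA, the alpha isoform often mutated in tumors, had a log2 fold change of 0.23 (95% interval -0.12 to 0.59), and PIK3CB, the beta isoform, one of 0.02 (-0.28 to 0.31).

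Among the regulatory subunits, PIK3R1 (p85 alpha), which binds and steadies the catalytic subunit, came closest to a call. Its level was 31.9, 32.9 and 33.3 CPM without Dox and 44.8, 41.2 and 40.7 CPM with Dox. These 2 sets of values were each tight and did not overlap, with means of 32.7 ± 0.753 and 42.2 ± 2.23 CPM (SD, n = 3 each). The coefficients of variation, 2.3% without and 5.28% with Dox, were below the 8.73% and 7.03% that counting error alone would give. The log2 fold change was 0.37 (95% interval 0.06 to 0.68, edgeR adjusted p = 0.07478), and on library totals alone 0.49 (adjusted p = 0.01895, in a range of 0.01895 to 0.221 over the alternatives). PIK3R2 (p85 beta) was likewise without overlap, at 34.0 to 40.3 CPM without and 42.0 to 52.3 CPM with Dox, with a log2 fold change of 0.33 (edgeR adjusted p = 0.1264), and it passed on library totals alone (0.45, adjusted p = 0.0356, in a range of 0.0356 to 0.340). PIK3R3 (p55 gamma) had a value of the other sign, -0.30 (95% interval -0.60 to 0.00, edgeR adjusted p = 0.1381), and passed without replicate 2 with Dox (-0.41, adjusted p = 0.0456, in a range of 0.0456 to 0.409). PIK3R4, the VPS15 scaffold of VPS34, was at 0.02 (-0.35 to 0.39).

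Apart from PDPK1, the group around Akt gave no call. AKT2, the isoform tied to insulin action, stood at 426, 503 and 371 CPM without Dox and 397, 431 and 420.1 CPM with Dox. The groups overlapped, and the log2 fold change was -0.06 (95% interval -0.34 to 0.22, edgeR adjusted p = 0.7921). AKT1, the broadly expressed isoform, varied far more between replicates, at 94.0, 53.3 and 96.5 CPM without Dox and 108.3, 60.1 and 123.7 CPM with Dox. Replicate 2 was the low library in both conditions. The coefficient of variation of AKT1 was 29.8% without and 34.1% with Dox, where counting error alone would give 5.89% and 5.07%, and the median over the members was 13.1% and 13%. Its log2 fold change was 0.26 (95% interval -0.21 to 0.74, edgeR adjusted p = 0.4309) and was 0.50 without replicate 2 with Dox (adjusted p = 0.0499, in a range of 0.0499 to 0.930 over the alternatives). An antisense gene lies at the 3' end of AKT1, and since the use of strand in counting is not stated, it is not known whether its reads affect this count. INPPL1 (SHIP2), a phosphatase that removes a phosphate from the PI3K product, had a log2 fold change of -0.32 (95% interval -0.63 to -0.01, edgeR adjusted p = 0.1275), with overlap, and passed without replicate 3 of the cells without Dox (-0.47, adjusted p = 0.0291, in a range of 0.0291 to 0.358). The Akt phosphatases PHLPP1 and PHLPP2 were at -0.16 (-0.52 to 0.20) and 0.07 (-0.42 to 0.57).

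Of the SGK kinases, close relatives of Akt, SGK1 had 5 to 14 counts per library and SGK3 0 to 8, and neither was tested. GSK3A and GSK3B, kinases that Akt inactivates, were both measured well. GSK3A stood at 53.0, 49.6 and 39.5 CPM without Dox and 46.3, 58.7 and 63.8 with Dox, with overlap (log2 fold change 0.26, 95% interval -0.08 to 0.60, edgeR adjusted p = 0.2567). GSK3B ran from 73.5 to 80.2 CPM without Dox and from 81.8 to 91.3 with Dox, without overlap (log2 fold change 0.17, 95% interval -0.09 to 0.44, edgeR adjusted p = 0.3349).

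No subunit of the mTOR complexes was called. MTOR, the kinase that both complexes share, was at 108.9, 115.7 and 110.1 CPM without Dox and at 90.9, 98.2 and 83.4 CPM with Dox. Every library with Dox was below every library without. The means were 111.6 ± 3.60 and 90.9 ± 7.41 CPM (SD, n = 3 each), and the log2 fold change was -0.30 (95% interval -0.56 to -0.04, edgeR adjusted p = 0.0878). It stayed between -0.36 and -0.18 and above the threshold under all 13 alternatives (adjusted p 0.0551 to 0.302). RPTOR, the substrate-binding subunit of complex 1, was at 10.45, 14.0 and 7.68 CPM without Dox and 12.8, 10.3 and 8.41 CPM with Dox. These values overlapped widely, and the interval of the log2 fold change was wide, from -0.57 to 0.56 around -0.01. RICTOR, the scaffold of complex 2, was at 57.5, 47.8 and 48.7 CPM without Dox and 54.6, 53.7 and 51.75 with Dox (log2 fold change 0.06, 95% interval -0.24 to 0.35, edgeR adjusted p = 0.8136). DEPTOR, a subunit that inhibits the kinase in both complexes, had the largest estimate in the group, 0.72 (0.04 to 1.41, edgeR adjusted p = 0.1134). Its values were 6.01, 2.48 and 8.73 CPM without Dox and 9.79, 8.63 and 11.3 with Dox, which overlapped, and its lowest library held 8 counts. Without replicate 3 of the cells without Dox, DEPTOR passed at 1.20 (adjusted p = 0.0296, in a range of 0.0296 to 0.365 over the 12 alternatives in which it was tested). The subunits MLST8 (-0.08) and MAPKAP1 (0.08, SIN1 of complex 2) and the complex 1 inhibitor AKT1S1 (PRAS40, -0.28) had intervals that included 0, and AKT1S1 passed without replicate 3 with Dox (-0.46, adjusted p = 0.0345, in a range of 0.0345 to 0.613 over the alternatives).

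**Figure D4:**
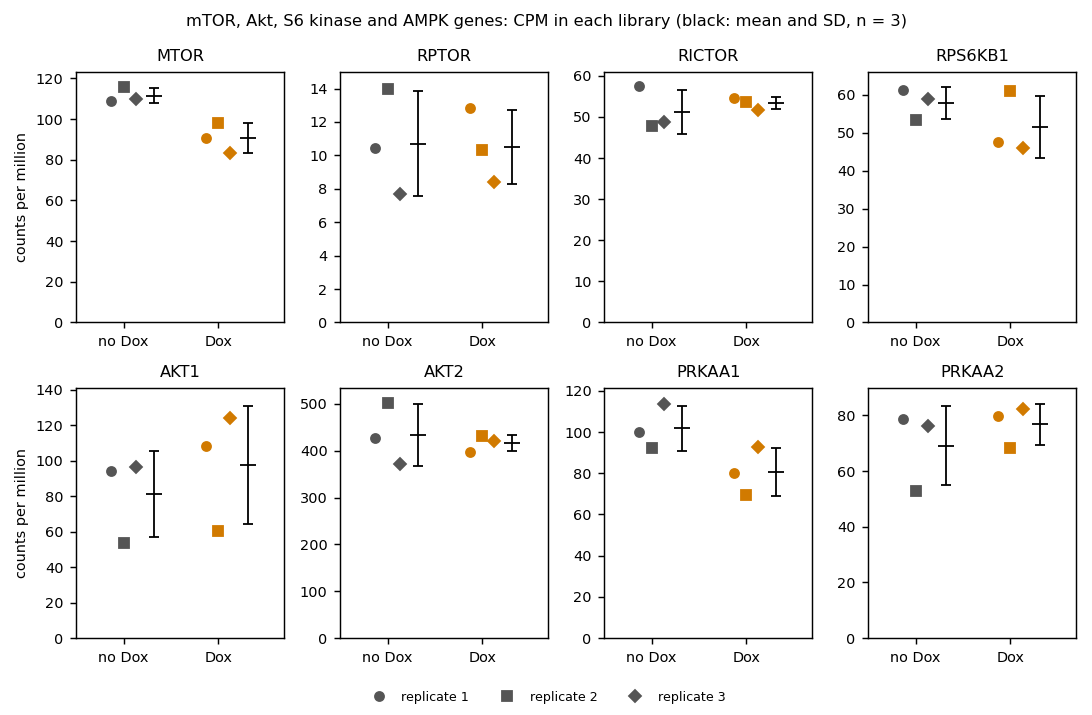
CPM after TMM normalization (vertical axes, from 0) of MTOR, RPTOR, RICTOR, RPS6KB1, AKT1, AKT2, PRKAA1 and PRKAA2 in each library without and with Dox (symbols mark the replicate number), with the mean ± SD in black. MTOR is the panel without overlap (108.9 to 115.7 CPM against 83.4 to 98.2), and AKT1 shows the widest spread between replicates.

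In the TSC complex and its target Rheb, DDIT4 was the call. TSC1 (hamartin) stood at 39.2, 54.0 and 52.4 CPM without Dox and 54.15, 73.75 and 60.3 CPM with Dox. The lowest library with Dox was barely above the highest without, and the log2 fold change was 0.36 (95% interval 0.03 to 0.70, edgeR adjusted p = 0.1077). On library totals alone TSC1 passed (0.49, adjusted p = 0.0323, in a range of 0.0323 to 0.436). TSC2 (tuberin), the subunit that switches Rheb off, was at 23.25, 20.5 and 16.4 CPM without Dox and 24.8, 19.5 and 19.8 with Dox, which overlapped (0.10, 95% interval -0.31 to 0.52, edgeR adjusted p = 0.7426). PKD1 lies on the opposite strand at the 3' end of TSC2. TBC1D7, the small subunit of the complex, was at 4.34 to 9.93 CPM without Dox and 5.57 to 11.95 with Dox, with replicate 2 the lowest in both (0.32, 95% interval -0.35 to 0.99). RHEB, the GTPase that activates mTOR complex 1, had a log2 fold change of -0.08 (95% interval -0.41 to 0.25, edgeR adjusted p = 0.7537).

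The Rag GTPases and the Ragulator subunits that anchor them at the lysosome gave 0 calls among 7 members, beside 25.5% of all genes tested. Their median log2 fold change was -0.11. RRAGA, which encodes Rag A, was at 97.4, 112.0 and 138.1 CPM without Dox and 103.5, 79.0 and 92.9 CPM with Dox. Replicate 1 with Dox lay above replicate 1 without Dox, and the groups overlapped (115.8 ± 20.6 to 91.8 ± 12.3 CPM, SD, n = 3 each; log2 fold change -0.34, 95% interval -0.65 to -0.03, edgeR adjusted p = 0.1065). RRAGD was at 111.3 to 118.2 CPM without Dox and 91.95 to 105.5 with Dox, without overlap (-0.19, 95% interval -0.45 to 0.07, edgeR adjusted p = 0.2751). RRAGC had an estimate of 0.00 (-0.27 to 0.27) and RRAGB one of -0.11. Within the Ragulator the estimates ran from -0.16 for LAMTOR1, its membrane anchor, to 0.31 for LAMTOR3 and 0.35 for LAMTOR2, and each interval included 0. LAMTOR2 passed without replicate 1 of the cells without Dox (0.56, adjusted p = 0.0453) or replicate 2 with Dox (0.50, adjusted p = 0.0395), in a range of 0.0395 to 0.606 over the alternatives.

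Of the 7 regulators of the Rag GTPases, 2 were called (28.6%), a share near the 25.5% of all genes tested. These were FNIP2 and SESN3, in opposite directions. The other 5 had log2 fold changes of -0.31 to 0.12. Folliculin (FLCN), which with FNIP1 or FNIP2 acts on Rag C and D, was at 19.4 to 30.0 CPM without Dox and 16.5 to 29.95 with Dox (-0.08, 95% interval -0.56 to 0.40). FNIP1, the paralogue of FNIP2, was at 64.0, 64.2 and 60.2 CPM without Dox and 66.1, 76.25 and 62.65 with Dox, which overlapped (0.12, 95% interval -0.16 to 0.40, edgeR adjusted p = 0.5659). The 3 subunits of GATOR1, which turns Rag A and B off, were at -0.01 (NPRL2), 0.01 (NPRL3) and -0.31 (DEPDC5), the last with fewer counts and an interval from -0.95 to 0.32.

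The substrates of mTOR complex 1 and the S6 kinases gave no call. RPS6KB1, which encodes S6 kinase 1, was at 61.4, 53.3 and 58.8 CPM without Dox and 47.6, 60.9 and 46.0 CPM with Dox. Replicate 2 with Dox was as high as the libraries without (57.9 ± 4.11 to 51.5 ± 8.21 CPM, SD, n = 3 each; log2 fold change -0.18, 95% interval -0.49 to 0.13, edgeR adjusted p = 0.4121). EIF4EBP1 (4E-BP1), a repressor of cap-dependent translation, was at 9.14, 11.2 and 7.68 CPM without Dox and 6.31, 3.62 and 7.36 CPM with Dox. The groups did not overlap, though the lowest library rested on 13 counts (log2 fold change -0.62, 95% interval -1.24 to 0.00, edgeR adjusted p = 0.137). RPS6KB2 (S6 kinase 2), the S6 kinase family member RPS6KA1 (RSK1) and EIF4EBP2 were at -0.20, 0.14 and -0.09, and their intervals lay within 1.5-fold.

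AMPK and its upstream kinase gave no call among 7 members, beside 25.5% called over all genes tested. Of the 7 intervals, 6 lay within a 1.5-fold change and all 7 within 2-fold, beside 34.8% and 72.1% over all genes. The median standard error of these 7 members, 0.154, was close to the 0.159 of all members. Their median size of change was 0.092 log2 units. PRKAA1, the alpha 1 catalytic subunit, was at 99.8, 92.1 and 113.6 CPM without Dox and 80.02, 69.3 and 92.7 CPM with Dox. Replicate 3 with Dox lay just above replicate 2 without Dox, so that the groups overlapped. The means were 101.8 ± 10.9 and 80.7 ± 11.7 CPM (SD, n = 3 each), and the log2 fold change was -0.33 (95% interval -0.63 to -0.04, edgeR adjusted p = 0.09193). PRKAA1 passed without replicate 3 with Dox (-0.45, adjusted p = 0.03105), in a range of 0.03105 to 0.291 over the alternatives. PRKAA2, the alpha 2 catalytic subunit, was at 78.6, 52.7 and 76.1 CPM without Dox and 79.8, 68.5 and 82.2 CPM with Dox. It overlapped widely, with replicate 2 the lowest in both (0.15, 95% interval -0.18 to 0.47, edgeR adjusted p = 0.5236). STK11 (LKB1), which phosphorylates both alpha subunits, was at 101.9, 89.3 and 71.7 CPM without Dox and 83.9, 81.0 and 93.4 with Dox (-0.02, 95% interval -0.32 to 0.29, edgeR adjusted p = 0.9504). The scaffold subunits PRKAB1 and PRKAB2 and the nucleotide-binding subunits PRKAG1 and PRKAG2 had log2 fold changes of -0.10 to 0.09.

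Partner and paralogous members were also compared within each library, as the ratio of their counts, which does not depend on how libraries are scaled. Of 17 pairs, 2 had ratios that did not overlap between the conditions, whereas 40.8% of all pairs of tested genes did not overlap. FNIP1 over FNIP2 was 1.64, 1.68 and 1.28 without Dox and 3.19, 3.25 and 2.31 with Dox. The ratio was thus higher in every library with Dox, by 0.92 on the log2 scale or 1.89-fold (exact two-sided permutation p = 0.1, the smallest that 3 against 3 libraries allow, adjusted over the 17 pairs 0.85). PRKAA1 over PRKAA2 was 1.27, 1.74 and 1.49 without Dox and 1.0, 1.01 and 1.13 with Dox. It was lower in every library with Dox, where the ratio was close to 1, a change of -0.51 on the log2 scale or 1.42-fold (exact two-sided permutation p = 0.1, adjusted 0.85). In no pair could this design pass the threshold of 0.05. AKT1 over AKT2 ran from 0.106 to 0.26 without Dox and from 0.14 to 0.295 with Dox, with replicate 2 the lowest in both (exact two-sided permutation p = 0.5). EIF4EBP1 over EIF4EBP2 ran from 0.0449 to 0.0708 without Dox and from 0.0252 to 0.0464 with Dox (exact two-sided permutation p = 0.2), overlapping by a small margin. The ratios of SGK1 over SGK3, counted among the 17, rested on as few as 0 counts of SGK3 and are not described.

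**Figure D5:**
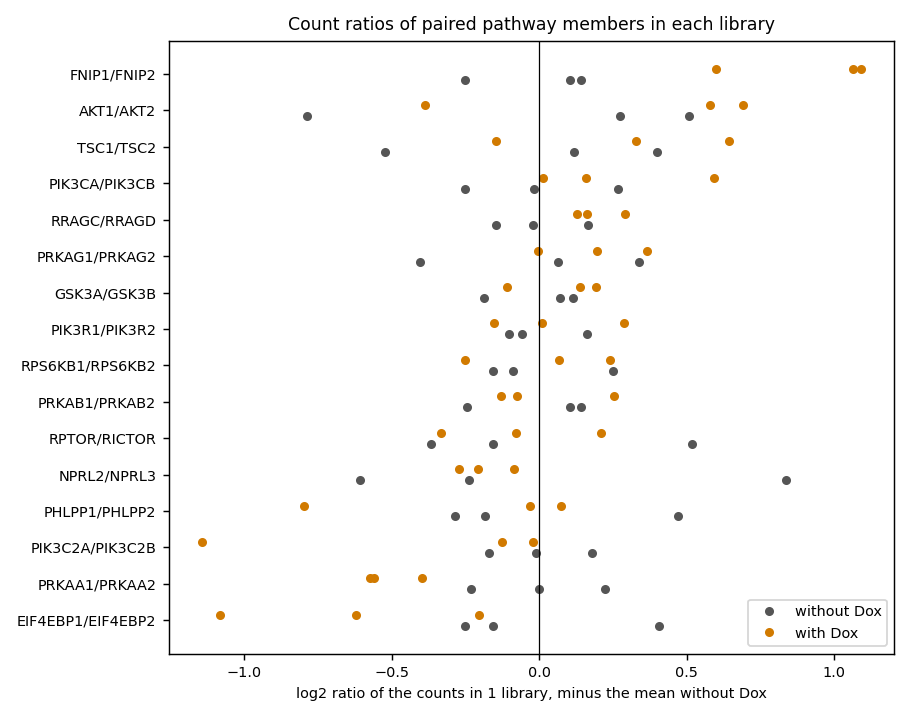
Log2 ratio of the counts of 2 members within a library, less the pair's mean without Dox (horizontal axis), for the measured pairs, with a point for each of the 3 libraries without and the 3 with Dox. FNIP1 over FNIP2 and PRKAA1 over PRKAA2 are the pairs whose groups do not overlap, the former higher and the latter lower with Dox.

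A further 64 genes of the pathway, outside the 58, were read from the same fit. Of these, 53 were tested and 10 (18.9%) differed, 4 higher and 6 lower with Dox, beside 25.5% of all genes tested. The groups did not overlap for 22 of the 53 (41.5%), beside 39.5% of all genes, and the median log2 fold change was 0.086. The median size of the change was 0.32 log2 units, beside 0.30 for all genes. The largest falls were of paralogues of members. RHEBL1, a relative of RHEB, was at 26.6, 30.4 and 26.9 CPM without Dox and 6.09, 4.73 and 8.93 CPM with Dox. It fell 4.04-fold (log2 fold change -2.02, edgeR adjusted p = 5.043e-06), whereas the interval for RHEB lay within 1.5-fold. DDIT4L (REDD2), the relative of DDIT4, was at 99.8, 67.9 and 100 CPM without Dox and 27.2, 21.15 and 23.9 CPM with Dox, a 3.71-fold fall (log2 fold change -1.89, edgeR adjusted p = 3.522e-07). Both genes of the REDD pair were thus lower in all 3 libraries with Dox. The sestrins had positive estimates throughout. SESN2 was at 45.2, 48.7 and 45.7 CPM without Dox and 64.8, 76.0 and 60.55 with Dox (log2 fold change 0.52, edgeR adjusted p = 0.01102), and its call was lost without replicate 1 of the cells without Dox (0.49, adjusted p = 0.0622, the highest of the 13 alternatives, whose lowest was 0.00263). SESN1, at 12.04 to 18.8 and 19.2 to 26.5 CPM, did not overlap but missed the threshold (0.58, 95% interval 0.14 to 1.02, edgeR adjusted p = 0.05209), which it passed under 7 of the 13 alternatives (adjusted p 0.0208 to 0.225), and all 3 sestrins stayed above 0 under the 13 alternatives.

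The other calls among these 64 genes were spread over the pathway. PHLDA3, a p53 target that competes with Akt for the membrane lipid, averaged 38.7 ± 6.82 CPM without and 66.8 ± 4.50 CPM with Dox (SD, n = 3 each; log2 fold change 0.80, edgeR adjusted p = 0.0008272). WDR59, a subunit of the GATOR2 complex that the sestrins bind, averaged 17.7 ± 4.15 and 28.3 ± 3.14 CPM (SD, n = 3 each; 0.68, edgeR adjusted p = 0.01575), and its call was lost without replicate 2 of the cells without Dox or replicate 3 with Dox. ACACA, the acetyl-CoA carboxylase of fatty acid synthesis that AMPK phosphorylates, averaged 193 ± 17.6 and 128 ± 16.2 CPM (SD, n = 3 each; -0.59, edgeR adjusted p = 0.003093). STRADA (0.62), the pseudokinase that activates LKB1, was higher, and IRS1 (-0.83), the docking protein of the insulin receptor, TRIB3 (-0.41), a pseudokinase that binds Akt, and EEF2K (-0.42), the kinase of elongation factor 2, were lower, each at an adjusted p under 0.05 in edgeR's test. Among the 58 members, 21 have a gene on the opposite strand and 9 another gene on the same strand within the last 500 bases of the 3' end, where these libraries place their reads, so their counts may be shared.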

How the data were processed

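RNA of 6 libraries (3 without and 3 with Dox) was sequenced by 3' mRNA-seq. The sample labels name the FWD kit and the study's methods the REV kit. Per the labels and the submitters' processing notes, the authors used CASAVA 1.8.2, FastQC, STAR, HTSeq and edgeR, with hg38. The authors deposited raw counts of reads per gene symbol for all libraries, whose strand setting is not given in the sources used here, and for each library a normalized signal scaled to similar totals by a method not stated (27443 genes shared by both sources). Counts were the main data. The 5 rows that name no gene were left out (reads on no gene 32.5% to 39.5%, ambiguous 3.05% to 3.37%).

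Counts were tested in R 4.3.3 with edgeR 4.0.16 (filterByExpr, TMM, quasi-likelihood test, Benjamini-Hochberg over 12233 genes, threshold 0.05) on the condition alone. DESeq2 1.42.0 and limma 3.58.1 (on log2 of the authors' normalized signal + 1) were alternatives. A level of 3 counts was taken as the limit of detection (0.392 to 0.927 CPM). It covers counting error only, since reads carry no molecular identifiers. Ratios of members within a library had 0.5 added to each count and were compared by an exact permutation test. Replicates differed by more than sampling noise (chi-square per degree of freedom 4.35 to 12.7), so each library was 1 sample. Tests were tried on simulated counts.

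The members, the further pathway genes and the pairs were chosen with earlier results of these data known. Named in full were the members called, the member of smallest adjusted p in each other role group, MTOR, RPTOR, RICTOR, AKT1, AKT2, TSC2, RPS6KB1, STK11, PRKAA1 and PRKAA2, the induced gene with PNPLA2, and the 3 further genes of smallest adjusted p in each direction. Other members and genes were named after their values were seen. Gene positions are from GENCODE 44 (58 of 58 members matched by symbol).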

Additional observations from a re-analysis of the deposited data

How the results depend on the processing

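The count of 4 members called was 3 with DESeq2's test and 2 to 6 with 1 library left out, lowest at 2 without replicate 1 with Dox, where FNIP2 and DDIT4 were called. Of the 4 calls, 1 (FNIP2) was kept without replicate 3 of the cells without Dox, 2 without replicate 1 of either condition or replicate 3 with Dox, and 3 without replicate 2 of either condition. The other calls in these fits were of DEPTOR and INPPL1, of LAMTOR2, of AKT1, LAMTOR2 and PIK3R3, or of AKT1S1, PIK3C3 and PRKAA1, depending on the library left out. Over all genes, 3125 calls became 2181 to 3112 with 1 library left out. On library totals alone the members' median log2 fold change was 0.12, that of all genes 0.14, and 16 of the further pathway genes passed in place of 10 (6 to 10 with 1 library left out, the lowest without replicate 3 of the cells without Dox). With 1 library left out, the members' median was -0.040 to 0.019 and the log2 fold change of ABHD5 0.81 to 1.06. The cause of these shifts was not tested. Estimates near 0 changed sign. RPTOR was 0.11 on library totals, 0.017 with at least 10 counts in every library, 0.0035 with limma on the authors' normalized values, 0.0089 with the replicate block and -0.23 to 0.21 with 1 library left out. AKT2 was 0.065 on library totals and -0.16 to 0.056 with 1 library left out, STK11 0.11 on library totals, 0.0076 with at least 10 counts and -0.15 to 0.091, TSC2 -0.040 to 0.21 and PRKAA2 -0.012 to 0.23. The same replicate numbers do not mark shared cultures in the labels, and deviations of same-numbered libraries correlated at -0.01, 0.25 and 0.09. With the replicate block, 6 members passed, PRKAA1 (adjusted p = 0.04195) and TSC1 (adjusted p = 0.04512) joining the 4, and 3537 genes in all (edgeR). The number of pairs whose ratios did not overlap was 2, and 2 to 4 with 1 library left out. Under the replicate block, another measure than overlap was used. There, 5 pairs had differences of the same sign in all 3 numbers, each at p = 0.25 by an exact sign-flip test, SGK1 over SGK3 with its 0 counts among them. With 3 libraries a condition, the 95% interval lay within 1.5-fold for 29 of the 55 members tested (52.7%), beside 34.8% of all genes tested.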
